A study of Mus musculus with 15 samples.

Results

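The regions described here are stretches of the mouse genome in which all 3 libraries of bone marrow-derived macrophages carried a peak of accessible chromatin after 4 h of lipopolysaccharide (LPS), while no untreated library did and no earlier LPS time had a peak in all 3 of its libraries. They numbered 821 of the 104855 regions formed by merging overlapping peaks of all 15 lists (0.783%). They were chosen by whether a peak was called in each of the 15 libraries, so the presence of peaks below is a description and carries no test. The study measured ATAC-seq, in which a transposase inserts sequencing adapters into DNA that it can reach, so that open chromatin gives peaks. The primary macrophages came from C57BL/6 mice, were grown in L929-conditioned medium and were taken on day 7 of differentiation. One group was untreated, and the other 4 received 10 ng/ml LPS, lasting 30 min in the shortest and then 1 h, 2 h and 4 h, with 3 libraries in each of the 5 groups. The labels do not say whether these came from separate mice or cultures.

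LPS is a component of the outer membrane of Gram-negative bacteria that macrophages sense through the receptor TLR4. Signalling first activates factors already present in the cell, such as NF-kB and AP-1, which act on a first wave of target genes. A later wave depends on newly made proteins, among them interferon-beta, which acts back on the cell through STAT and IRF factors. Enhancers differ in the same way, since some are open in the resting cell and others lose their nucleosomes only after stimulation. The gene annotation at hand was of another build than the peak lists (mm9), so the regions are given by position alone, their genes and exons were not looked up, and no macrophage or other cell type marker could be checked at its start site.

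The rule asks for completeness, and most of the 821 regions had been seen earlier in at least 1 library. A peak was called in no library before 4 h in 147 regions (17.9%). In 312 regions (38.0%) the earliest peak was at 2 h, and in the remaining 362 (44.1%) a peak was already present in 1 or 2 libraries at 30 min or 1 h. By the peaks called in these lists, the regions thus hold 3 courses: appearance at 4 h, partial appearance at 2 h, and a sparse early presence that filled in by 4 h. Many of these peaks were weak, as given below, so a region's course can turn on the cut-off of the caller. The number of libraries with a peak did not fall from 30 min to 1 h to 2 h in 711 regions (86.6%). This count includes the 147 regions with no earlier peak and the 312 first seen at 2 h, where it could not fall. The share over all regions was not computed. A peak at 30 min or 1 h that was missing from every 2 h library occurred in 32. A total of 2928 regions, 2.79% of all, were complete at 4 h without any untreated peak, and the 821 made up 28.0% of them. The same rule with another LPS time as the complete one found 135 regions complete at 30 min alone, 217 at 1 h alone and 2433 at 2 h alone.

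Presence differed between replicates. Up to 2 h it rose at each step in replicates 1 and 2, and in replicate 3 only from 1 h to 2 h. At 30 min, the library of replicate 1 had a peak in 13.6% of the 821 regions, that of replicate 2 in 16.0% and that of replicate 3 in 1.71%. At 1 h the shares were 21.9%, 27.4% and 1.46% in the same order. At 2 h they were 60.4%, 53.1% and 18.3%. Among all regions the shares were 62.3%, 65.4% and 47.5% at 30 min and 61.35%, 66.8% and 45.3% at 1 h. At 2 h those of all regions were 70.5%, 71.6% and 58.5%. They too were highest at 2 h among these times, and lowest in replicate 3. Replicate 3 was thus low at each of these times, and its list was also the shortest at each LPS time, with 54168 nuclear peaks at 30 min, 52447 at 1 h, 66955 at 2 h, and 55777 after 4 h, against 71246 to 82222 in replicates 1 and 2. At 2 h, 440 regions reached 2 of 3 libraries. Of these, 316 lacked it in replicate 3, 72 in replicate 2 and 52 in replicate 1. For those 316 regions the 2 h replicate 3 library alone decided that they were not complete at 2 h. The sequencing depth behind the lists is unknown.

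**Figure D1:**
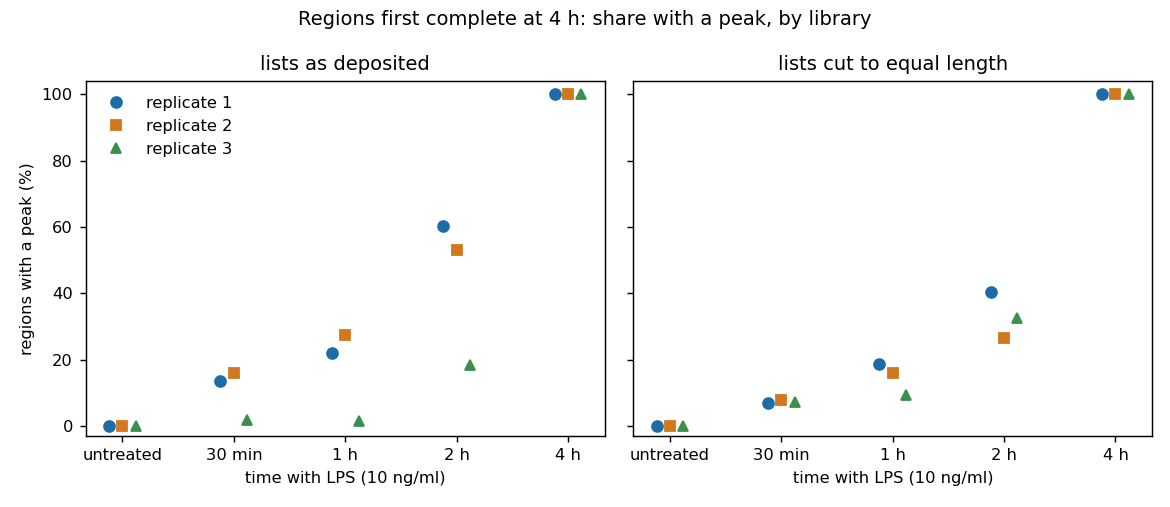
Share of regions with a peak (percent, vertical axis) in each of the 15 libraries by time with LPS (horizontal axis), with 1 point per library and a colour and symbol per replicate number. Left, the 821 regions from the lists as deposited, where replicate 3 lies below replicates 1 and 2 up to 2 h; right, the 931 regions that the rule finds with every list cut to 52447 peaks, where the replicates lie closer together. The values of 0% for untreated and 100% at 4 h are set by the rule.

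With every list cut by score to the length of the shortest, 52447 peaks, the rule found 931 regions, of which the share with a peak was 6.77% to 7.73% over the 3 libraries at 30 min, 9.24% to 18.8% at 1 h and 26.6% to 40.4% at 2 h. Replicate 3 then no longer stood apart at 30 min, where it had 7.20%, or at 2 h, where it had 32.4%, and it was still the lowest at 1 h. Of these 931 regions, 258 (27.7%) had no peak before 4 h. Membership moved more than the number did: 258 of the 821 regions (31.4%) overlapped one of the 931. The count of regions complete at 2 h alone fell from 2433 to 916 under the same cut, so that 4 h and 2 h then gave similar numbers.

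The course was also looked up in replicates that the choice had not used. The regions were still those merged over all 15 lists, so the lists left out helped to draw their bounds. All regions, given below as background, include those called only in the library looked up. The rule was applied to 2 replicate numbers of every group (0 of 2 untreated, 2 of 2 at 4 h, fewer than 2 of 2 at the other times), and the chosen regions were then looked up in the 5 libraries of the replicate number left out. Chosen from replicates 2 and 3, 924 regions had a peak in 6.71% of cases in the untreated library of replicate 1, in 17.5% after 30 min of LPS, in 23.3% after 1 h, in 60.9% after 2 h and in 89.2% after 4 h. Chosen from replicates 1 and 3, 1189 regions had one in replicate 2 in 19.0%, 23.0%, 32.6%, 57.0% and 78.1% of cases in the same order of times. Chosen from replicates 1 and 2, 2672 regions had one in replicate 3 in 4.83%, 1.53%, 1.83%, 14.5% and 19.5% of cases. In each of the 3 replicates left out, the share was highest at 4 h and next highest at 2 h. Among all 104855 regions, the share with a peak at 4 h was 70.8%, 66.0% and 48.3% in replicates 1, 2 and 3, so the regions chosen from 2 replicates stood above that background at 4 h in replicates 1 and 2 and below it in replicate 3. With lists of equal length the shares at 4 h were 77.9%, 69.7% and 50.1% in replicates 1, 2 and 3, against 63.8%, 64.9% and 62.7% of all regions in the same cut lists, so that replicate 1 lay above that background, replicate 2 by less, and replicate 3 below it. Those in the untreated libraries were 11.9%, 8.47% and 8.34%, against 62.1%, 64.4% and 63.6% of all regions. At 2 h the shares of the chosen regions were 38.5%, 28.5% and 27.0%. In each replicate 4 h was again the highest and 2 h the next, and the gap between 2 h and 4 h was wider than in the deposited lists in all 3 replicates. The 3 choices share libraries with each other, so no p-value is given.

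**Figure D2:**
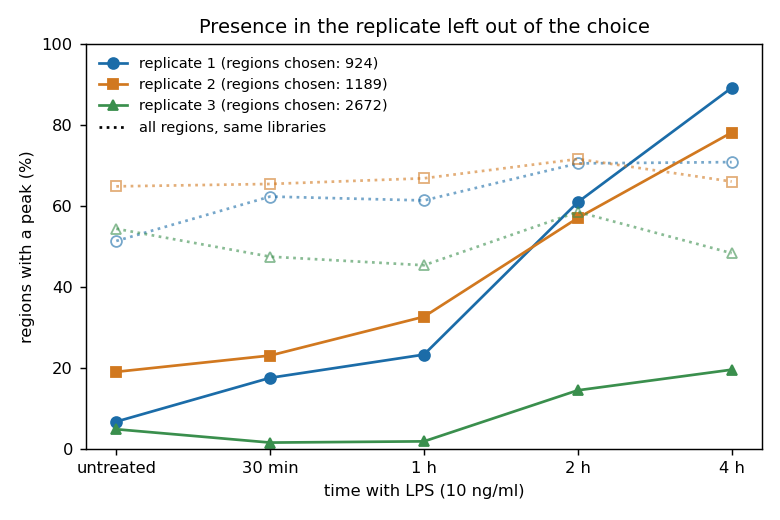
Percentage of regions with a peak (vertical axis) by time with LPS (horizontal axis) in the libraries of the replicate number that took no part in choosing them. Filled symbols with solid lines are the chosen regions (924, 1189 and 2672), open symbols with dotted lines are all 104855 regions in the same libraries. Solid lines end at 89.2%, 78.1% and 19.5% at 4 h, each the highest point of its line.

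The 4 h peaks in the 821 regions were weaker than those of most other regions in the same lists. Each peak comes with the score that the authors' peak caller gave it, which is comparable only inside its list and was therefore turned into a percentile within that list, where 100 is the strongest peak. The median percentile of the 821 regions was 37.8 in 4 h replicate 1, 28.3 in replicate 2 and 16.4 in replicate 3. Regions with a peak in all 15 libraries had medians of 75.9, 74.3 and 65.7 in the same lists. Regions first complete at 2 h and complete at 4 h, 1229 in number, lay between, with 53.6, 44.1 and 28.3. Those first complete at 1 h and complete at 4 h (523) had medians of 64.2, 54.9 and 37.0, and those first complete at 30 min and complete at 4 h (355) had 54.7, 49.9 and 38.3. In each of the 3 lists the 821 regions had the lowest median of these classes. All these classes were defined by where peaks were called, so this order is a description.

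**Figure D3:**
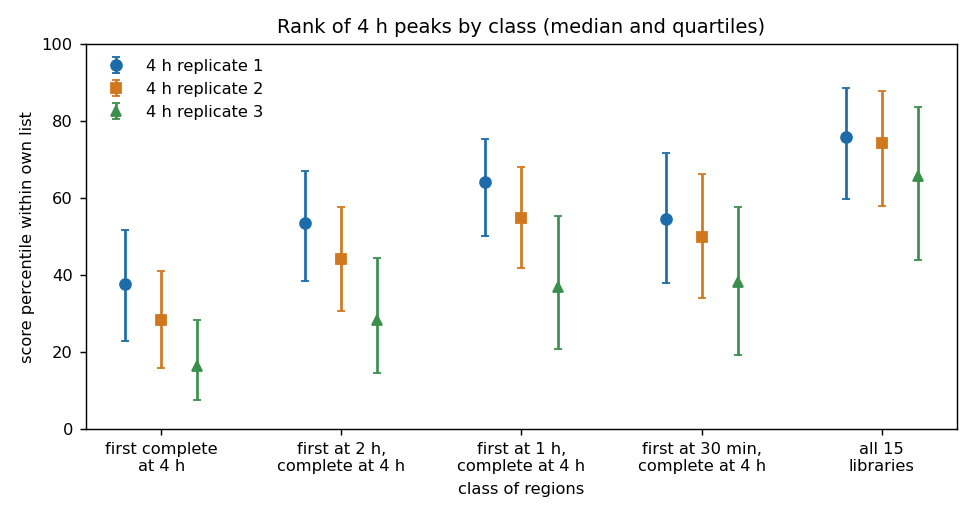
Score percentile within the peak's own list (vertical axis) for peaks of the 3 libraries at 4 h, by class of regions (horizontal axis). Points are medians over regions and bars reach from the lower to the upper quartile. The regions first complete at 4 h have the lowest median in each library (37.8, 28.3 and 16.4).

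Many of the peaks lay near the lower end of the score, which starts at 50 in these lists. Of the 821 peaks, 25.7% had a score under 100 in 4 h replicate 1, 40.8% in replicate 2 and 71.1% in replicate 3, where the whole lists had 23.3%, 23.4% and 26.3%. All 3 peaks stood above percentile 50 of their lists in 16 regions and above percentile 25 in 165. The lowest of the 3 percentiles was the one in replicate 3 in 527 regions, in replicate 2 in 201 and in replicate 1 in 93. The 147 regions with no earlier peak had the lowest median rank at 4 h of the 3 courses, and those first seen at 2 h the highest, in each of the 3 libraries. In replicate 1 the median percentile was 31.9 for the 147 regions with no earlier peak, 40.0 for the 312 first seen at 2 h and 36.9 for the 362 seen at 30 min or 1 h. In replicate 2 the corresponding medians were 20.5, 32.2 and 26.9, and in replicate 3 they were 13.8, 18.9 and 14.4.

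The peaks were narrower at 4 h than those of the other classes named above, and they lay similarly close to each other in place. Width here is the summed width of all peaks that a library had in a region. Its median over the 821 at 4 h was 1182, 1313 and 1134 bp in replicates 1, 2 and 3. For regions with a peak in all 15 libraries it was 1724, 1826 and 1638 bp. Regions first complete at 2 h and complete at 4 h had 1368, 1487 and 1280 bp. In 790 of the 821 regions (96.2%) each 4 h library had a single peak, and the midpoints of these 3 peaks lay within a median span of 160 bp of each other. That span was 164 bp for regions with a peak in all 15 libraries, of which 81.8% had a single peak in each 4 h library. It was 154 to 161 bp in the classes complete earlier. Merging by overlap keeps the peaks of a region close, so a short span is partly set by how regions were formed. The 3 peaks of the 790 regions shared a median of 939 bp. In 4 of these 790 they shared no base, so that those 4 count as complete at 4 h only through the merging of peaks. The merged regions had a median width of 1526 bp and ranged from 576 to 5993 bp. Only 7 of the 821 reached a summed width of 2000 bp or more in each of the 3 libraries at 4 h, and 1 reached 3000 bp or more in each.

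The regions to name were ranked by the lowest of their 3 percentiles at 4 h, which orders them by how strong the weakest of the 3 peaks was. Rank 1 was chr2:122286831-122290543 (mm9), with scores of 737.51, 629.64 and 527.22 in 4 h replicates 1, 2 and 3, at percentiles 72.3, 70.0 and 69.9. At 2 h it had peaks of 51.69 and 51.28, close to the lowest score listed, in replicates 1 and 3, and none in replicate 2. The earlier libraries had no peak there. The region was also wide at 4 h, with summed peak widths of 3713, 2231 and 2939 bp, against 1119 and 1066 bp at 2 h.

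Rank 2 was chr11:78685980-78687659, which had no peak in any library before 4 h. Its 4 h scores were 786.18, 416.93 and 414.53, at percentiles 73.5, 61.3 and 64.6. It was thus the strongest of the 147 regions that appeared at 4 h without an earlier peak, and the only one of the 10 highest-ranked that did so. The next among the 147, named after their values were seen, were chr2:4843172-4844672, with scores of 1201.87, 267.42 and 237.24, and chr10:109409898-109411505, with 558.36, 244.62 and 161.97. In both, replicate 1 scored highest.

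Rank 3, chr4:100948614-100950400, had scores of 1061.31, 526.08 and 350.34 at 4 h, and 2 h peaks in replicates 1 and 3 scored 170.7 and 88.45. Rank 4, chr8:113387201-113388944, had 482.45, 830.22 and 317.14, with 2 h peaks of 90.47 and 114.8 in replicates 2 and 3. Rank 6, chr10:41298714-41300455, had the highest single percentile among the 821 at 4 h, 90.1 in replicate 1. Its 4 h scores were 2206.33, 881.66 and 304.87 in replicates 1, 2 and 3. This region already stood at percentiles 50.6 and 54.1 of the 2 h lists of replicates 1 and 3, yet no 2 h peak was called in replicate 2.

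Ranks 5 and 7 were neighbours on chromosome 18, at chr18:75053214-75055018 and chr18:75055287-75058062. Their centres lay 2558 bp apart. The first had scores of 362.09, 581.58 and 431.54 at 4 h, with peaks of 86.68 and 88.72 in 2 h replicates 2 and 3. The second had 644.37, 505.19 and 284.57, with 1 peak of 75.85 in 2 h replicate 3. Ranks 8 to 10 were chr9:83080493-83082396, chr13:102913005-102914853 and chr6:108095737-108097535, each with peaks in 2 libraries at 2 h and none earlier. None of the 10 had a peak at 30 min or 1 h (0 of 10). In these strongest regions the 2 h peak was present in replicate 3 in 9 of 10, in replicate 1 in 5 and in replicate 2 in 3, so the shortest 2 h list was the one that held them most often. All 10 also met the rule with lists of equal length, with only peaks scored 100 or more, with peaks covering 50% of the region and with peaks set to 500 bp around their midpoints. The first 2 of these settings only take weaker peaks away, and the 10 were chosen for strong 4 h peaks. Passing these 2 settings was thus set by the choice. Leaving out a 2 h library ended the call for 8 of the 10, which were then complete at 2 h: ranks 1, 3, 6, 8 and 9 without 2 h replicate 2, and ranks 4, 5 and 10 without 2 h replicate 1.

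**Figure D4:**
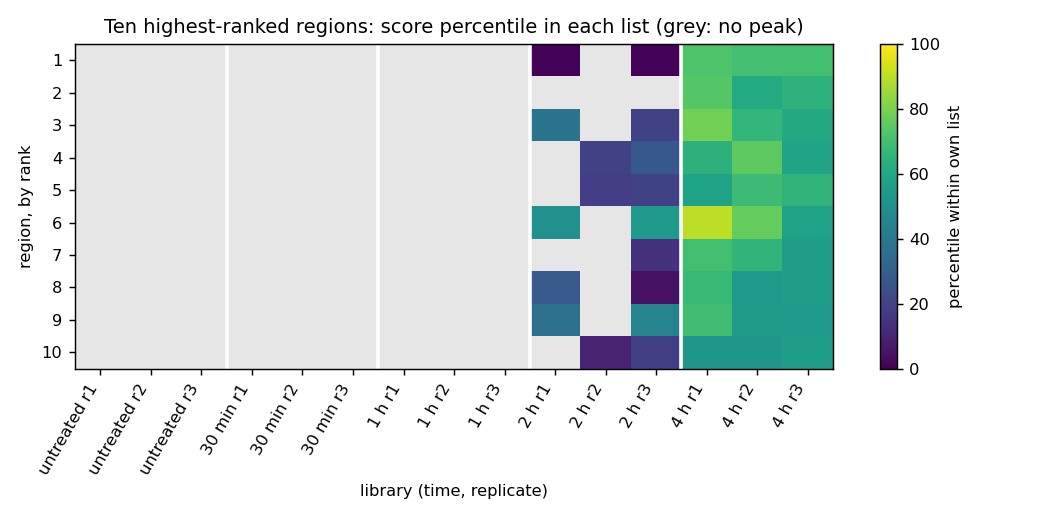
Score percentile within its own list (colour) of the 10 highest-ranked regions (rows, by rank) in the 15 libraries (columns, by time and replicate), with grey where no peak was called. All rows are grey to 1 h, 9 of 10 have a peak in 2 h replicate 3, and every row is filled at 4 h with percentiles of 52.7 to 90.1.

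The widest regions were ranked by the smallest of their 3 summed widths at 4 h. The first was chr7:81839510-81843573, with summed widths of 3604, 3839 and 3695 bp at 4 h and of 2350 and 2529 bp in 2 h replicates 1 and 3. It was the region with 3000 bp or more in each 4 h library. The region chr19:34662513-34667960 had summed widths of 5412, 4646 and 2307 bp at 4 h and of 1286 and 1688 bp in 2 h replicates 1 and 2. The others were chr5:20871549-20874430, chr1:154450776-154454307 and the region of rank 1 on chromosome 2. In all 5 the summed width in each 4 h library was larger than in any 2 h library, which the choice by width at 4 h favours.

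An early and incomplete presence marked other regions. In 23 regions, 2 of 3 libraries had a peak at all of 30 min, 1 h and 2 h. The strongest of them, chosen after values were seen, was chr1:108249131-108250463, whose percentiles were 36.8 and 42.7 in 30 min replicates 1 and 2, 42.2 and 29.5 in 1 h replicates 1 and 3, and 55.6 and 4.98 in 2 h replicates 1 and 2. At 4 h it stood at 73.3, 62.3 and 51.2. The library without a peak was replicate 3 at 30 min and 2 h, and replicate 2 at 1 h. A peak had thus been called in 6 of the 9 earlier LPS libraries.

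The limits of the rule run through a graded set. Just inside lay the regions of ranks 1 and 3, each with 2 of 3 libraries at 2 h. Just outside lay 1229 regions that were complete at 2 h already, led by chr2:24148209-24153464 with percentiles of 80.5, 82.0 and 74.9 at 2 h and 96.9, 93.6 and 87.8 at 4 h, and chr5:121811790-121823130 with 80.8 to 90.2 at 4 h. A further 349 regions missed the rule through 1 untreated peak, such as chr5:121177453-121181808, with an untreated peak at percentile 13.4 in replicate 3 and 4 h peaks at 69.8, 65.7 and 64.4, and chr2:129767916-129769870, with 1 at percentile 7.67 in replicate 1 and 93.4, 79.7 and 61.1 at 4 h. Another 3938 regions met the rule except for 1 missing library at 4 h. Of these, 3599 lacked 4 h replicate 3, 237 lacked replicate 2 and 102 lacked replicate 1. The 4 h replicate 3 library was therefore the one that most often kept a region out.

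The regions were spread over the genome. Every chromosome but Y, which held 22 regions of any kind, carried some, from 18 on chromosome 18 and 19 on chromosome X to 77 on chromosome 2. As a share of all regions of the chromosome they ranged from 0.556% on chromosome 18 to 1.06% on chromosome 13, around the 0.783% of the genome. The median distance to the nearest region with a peak in all 15 libraries was 12.7 kb, close to the 11.2 kb over all regions, and 41.4% lay within 10 kb of one, against 46.2% of all regions.

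They lay nearer to other LPS-opened regions than regions in general did. Within 50 kb of 17.2% of the 821 there was another of them, against 6.66% of all regions. Regions first complete at 2 h and complete at 4 h had a region of the 821 that near in 15.4% of cases. Nearness to the 821 was thus not particular to the 821 themselves. Within 50 kb of 29.7% of the 821 there was a region opened earlier and complete at 4 h, against 16.1% of all regions. The 1229 regions first complete at 2 h and complete at 4 h had another region that was complete before 4 h and at 4 h within 50 kb in 38.0% of cases. All of these regions come from the same libraries, and the part of regional differences in signal between libraries was not tested.

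A few stretches held several of the regions. The densest was chr13:20902095-20987102, where 6 of the 14 regions in 85 kb were first complete at 4 h, 1 had been complete earlier, and none (0) had a peak in all 15 libraries. Its strongest was chr13:20984854-20987102, with 2 of 3 libraries at 2 h and a lowest 4 h percentile of 40.4. The stretch chr1:154417827-154553158 held 5 among 19 regions with no earlier gain, and chr1:175407168-175589070 held 5 among 17 with 2 earlier gains. At chr7:81479327-81631753, 5 of 36 regions were first complete at 4 h and 8 had been complete earlier, so the stretch held both late and earlier gains. The fifth, chr6:129573036-129693367, held 4 among 12 regions. In all, 11 pairs had centres within 5 kb of each other.

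Chromatin that was open in all libraries near these regions was looked at as well, since such regions can never be members. Within 25 kb, 563 of the 821 regions (68.6%) had one, giving 544 distinct neighbours. For each library, the median score percentile of these neighbours was set against that of all regions with a peak in all 15 libraries. The difference was -1.68, -0.263 and -0.896 percentile points in untreated replicates 1, 2 and 3, and it was 4.13, 3.98 and 6.15 at 4 h. The 2 h libraries lay between, at 1.96, 1.70 and 3.19, and the 30 min and 1 h libraries lay between -1.39 and 0.912. All 3 libraries at 4 h stood above the 12 others, without overlap. The median log2 of the summed peak width behaved alike, with differences of 0.0754, 0.0754 and 0.0348 at 4 h, 0.0168 to 0.0216 at 2 h, and -0.0764 to -0.00722 in the other libraries. The mean difference in width at 4 h was 0.0619 ± 0.0234 on the log2 scale (SD, n = 3), and that in untreated libraries was -0.0172 ± 0.00867 (SD, n = 3).

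These libraries also chose the regions, so no p-value is given for the neighbours, and they were looked up in the replicates left out. Always-open here meant a peak in all libraries of the other 2 replicate numbers, which gave 616, 788 and 1849 neighbours for replicates 1, 2 and 3. Those without a peak in a library looked up were skipped there. With regions chosen from the other 2 replicate numbers, the neighbours' percentile difference was 2.77, 1.88 and 2.62 at 4 h in replicates 1, 2 and 3, and -1.78, -1.03 and -2.38 in the untreated libraries. The width difference was 0.0493, 0.0386 and 0.0226 at 4 h and -0.0356, -0.0178 and -0.0226 in untreated libraries. In each replicate left out, 4 h was the highest of the 5 times in both measures. The neighbours of the regions first complete at 2 h and complete at 4 h had a percentile difference of 8.03 ± 1.51 at 4 h (SD, n = 3), against 4.75 ± 1.21 for the neighbours of the 821 (SD, n = 3). The difference between these classes was not tested.

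**Figure D5:**
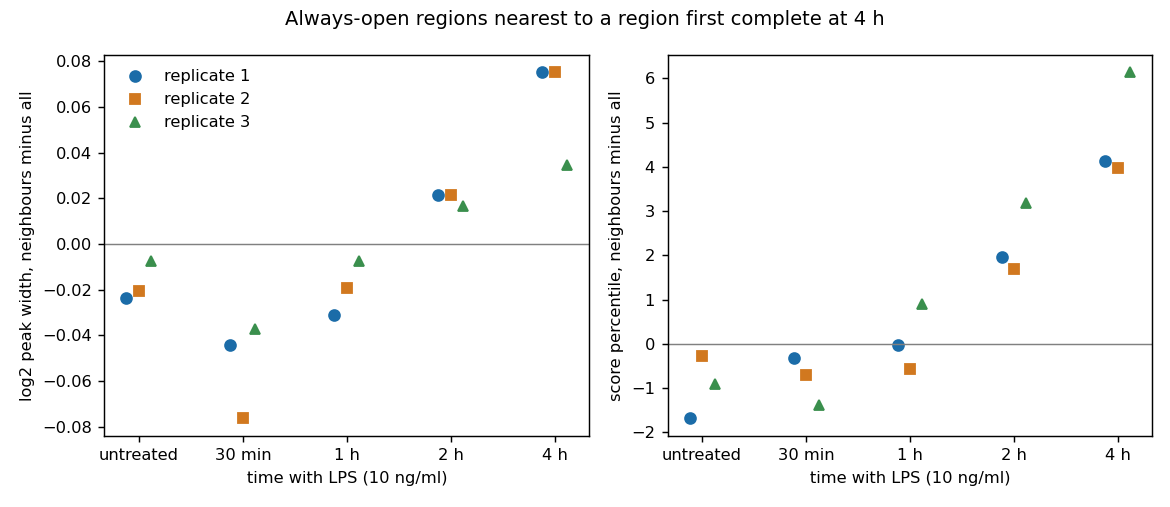
Difference between the always-open regions nearest to the 821 regions (544, within 25 kb) and all always-open regions, as median log2 of the summed peak width (left) and median score percentile within the list (right), with 1 point per library by time with LPS. Points at 4 h lie above all others in both panels (0.0348 to 0.0754, and 3.98 to 6.15).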

How the data were processed

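The authors deposited 1 peak list per library, with positions and a score per peak. Per the submitters' processing notes, Bowtie 1.1.2 and MACS 1.4 were used on build mm9. Their settings, and any duplicate removal, transposase shift, control or blacklist, are not stated in labels or file headers. The deposited score ran from 50 to 3233.06, with 5.03% of peaks tied at 3100, and by this range is 10 times the −log10 of a p-value, which no header says. Depth is unknown, and absence of a peak says no more than that the caller listed none.

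Groups and replicate numbers came from sample titles. Mitochondrial peaks were left out, peaks overlapping by 1 bp or more were merged over the 15 lists, and scores were ranked within their list (Python 3.11.15, pandas 2.3.3, numpy 2.4.6, scipy 1.17.1). Where a library had several peaks in a region, their widths were summed and the highest score was used. Starts are counted from 1. The rule was tested on simulated lists. Regions, named items and alternatives were chosen with earlier results of these data known. Named were the 10 regions with the highest lowest percentile at 4 h, the 5 with the largest lowest width, and up to 5 windows of 200 kb with 4 or more regions. Exact permutation tests of the neighbours had been planned, but the same libraries chose the regions, so values are given without p. The look-up in replicates left out was added after seeing the data. Same-numbered libraries deviated together from their group means with correlations of 0.0492 to 0.294 over 36919 regions. These were all positive but not all above 0.1, so numbers were not treated as pairs. Whether same-numbered libraries shared a batch was not tested. Gene lists, markers, motifs and sequences were not analysed here, since the reference tables are of GRCm38.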

Additional observations from a re-analysis of the deposited data

How the results depend on the processing

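The number of regions depended on which peaks were allowed. It was 525 with peaks scored 100 or more (157 of the 821 still overlapped a member), and 2695 with replicates 1 and 2 of every group, an alternative chosen after seeing the data (463 of the 821). Under lists of equal length, 50% coverage and 500 bp midpoints it was 931, 1054 and 976, with 258, 719 and 798 of the 821 overlapping a member. Of the 821, 122 (14.9%) met the rule both with equal lists and with scores of 100 or more, and 11 of these 122 had no peak before 4 h. Leaving out 1 library gave 506 to 4427 regions, with 4427 without 4 h replicate 3 and 506 without 2 h replicate 3. The share with a peak in 2 of 3 libraries at 2 h was 53.6% and became 34.2% with equal lists.

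The neighbours' differences between 4 h and the 12 other libraries were 0.0791 in log2 width and 4.59 percentile points. They kept their sign under every alternative run: distances of 10 and 100 kb, equal lists, scores of 100 or more, each library left out (0.0571 to 0.101, and 3.32 to 5.68) and 4 h against untreated libraries only (0.0791 and 5.70), where 3 against 3 libraries cannot give an exact permutation p under 0.1. A replicate block, with labels exchanged within replicate numbers, leaves the differences at 0.0791 and 4.59 by construction. All of these runs use the libraries that chose the regions, so the kept sign is no independent support. For 4 h against untreated the sign was already set, since every 4 h library stood above every untreated one.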
